A study of Mus musculus with 16 samples.

Results

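The Polycomb repressive complex 2 (PRC2) genes described here are 10 of the 52636 genes with a row in the count table: the catalytic subunits Ezh1 and Ezh2, the core subunits Eed and Suz12, the histone-binding subunits Rbbp4 and Rbbp7, and the accessory subunits Jarid2, Mtf2, Phf1 and Phf19. They were chosen by gene name from the known make-up of the complex, by no rule on measured values, though earlier results of these data were known. Each was found by its Ensembl gene ID. RNA was sequenced from 16 libraries of CRAFR26, mouse embryonic stem cells carrying a c-RAF kinase construct that 4-hydroxytamoxifen (4OHT) switches on, so that ERK becomes active; the cells had been differentiated to the pluripotent state labelled RSC. The routine medium (N2B27 with IWP2, LIF and the MEK inhibitor PD03) was changed for 48 h to one in which 250 nM of the FGF receptor inhibitor PD17 took the place of PD03, and all 4 groups share this treatment. Libraries of 0h had no 4OHT, those of 2h and 4h had 250 nM of it for 2 h or 4 h, and those of rev had 4OHT for 4 h and then a MEK inhibitor for 2 h, at a dose the labels do not give. Each group has 4 libraries, 2 from clone 4 and 2 from clone 8. Each clone is 1 cell line, so a difference between them is a difference between these 2 lines. The labels do not say whether the 2 libraries of a clone came from separate cultures, so p-values measure the spread between these libraries, which may be technical in part. No library with 6 h of 4OHT and no MEK inhibitor was analysed here, so in rev against 4h the inhibitor and the 2 h of added time cannot be told apart.

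PRC2 is the enzyme complex that methylates lysine 27 of histone H3, the mark of Polycomb-silenced chromatin. Ezh2 or Ezh1 carries the methyltransferase activity and works only in complex with Suz12, the scaffold, and Eed, which binds the methylated product and stimulates the enzyme. Accessory subunits guide the complex to CpG islands: the Polycomb-like proteins Mtf2, Phf1 and Phf19 define one form of it (PRC2.1) and Jarid2 and Aebp2 the other (PRC2.2). In pluripotent cells PRC2 is known for keeping developmental genes silent but inducible.

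The 250 bases upstream of the RefSeq start are printed for 4 of the genes, each with a match to a motif searched for. They are Phf19, which fell, Suz12, which rose at 2h, Rbbp7, which rose, and Ezh2, which did not pass the test in any time comparison. Jarid2, which also rose, is not printed, and its 2 windows held no match. All 10 genes matched the RefSeq table of build GRCm38.p6, with 12 start sites, as Jarid2 and Mtf2 have 2 each. The windows are written 5′ to 3′ on the gene's strand. Capitals mark the E2F-type letters TTTCCCGC or their reverse complement GCGGGAAA in Phf19 and Suz12, and the NRF1 motif in Rbbp7 and Ezh2.
Phf19, chr2:34913977-34914226, minus strand: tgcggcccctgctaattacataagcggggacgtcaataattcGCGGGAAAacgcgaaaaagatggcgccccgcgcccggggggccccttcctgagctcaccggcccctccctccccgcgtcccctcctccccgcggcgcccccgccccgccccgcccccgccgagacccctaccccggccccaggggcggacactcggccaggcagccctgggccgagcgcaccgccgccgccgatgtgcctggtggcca
Suz12, chr11:79992856-79993105, plus strand: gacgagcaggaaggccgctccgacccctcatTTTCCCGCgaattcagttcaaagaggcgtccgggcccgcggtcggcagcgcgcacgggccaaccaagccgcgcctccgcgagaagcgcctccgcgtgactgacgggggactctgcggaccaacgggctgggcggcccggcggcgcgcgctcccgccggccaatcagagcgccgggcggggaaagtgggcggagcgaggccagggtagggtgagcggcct
Rbbp7, chrX:162760122-162760371, plus strand: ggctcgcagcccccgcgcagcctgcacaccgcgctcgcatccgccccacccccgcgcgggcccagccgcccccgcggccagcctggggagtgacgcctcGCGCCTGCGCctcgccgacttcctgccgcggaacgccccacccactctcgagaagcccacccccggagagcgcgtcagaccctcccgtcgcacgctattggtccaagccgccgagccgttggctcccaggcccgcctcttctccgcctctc
Ezh2, chr6:47595031-47595280, minus strand: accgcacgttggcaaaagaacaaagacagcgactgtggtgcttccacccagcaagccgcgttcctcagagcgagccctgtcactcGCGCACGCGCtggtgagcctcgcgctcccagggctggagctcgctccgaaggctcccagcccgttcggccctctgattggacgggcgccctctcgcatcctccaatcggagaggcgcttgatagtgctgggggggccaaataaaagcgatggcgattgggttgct
TTTCCCGC was present on either strand in 0.895% of the 32851 upstream windows in the table, and among the PRC2 genes in Suz12, 219 to 212 bases upstream of the start, and Phf19, 208 to 201 bases upstream. At 2h against 0h Suz12 rose and Phf19 fell, and at 4h against 2h Suz12 was lower and Phf19 higher. The part of these letters in the changes was not tested. The NRF1 motif, in 3.74% of windows, was found in Ezh1, Ezh2 and Rbbp7. The E-box CACGTG, in 6.02% of windows, was found in Rbbp4. The second E2F-type string TTTGGCGC (0.417% of windows), the ETS string CCGGAAG (6.91%), the CRE TGACGTCA (1.55%) and the EGR string GCGTGGGCG (0.536%) were in none of the 12 windows, and Eed, Jarid2, Mtf2 and Phf1 held none of the motifs searched. A match is only a match of letters, and its absence refers to this window alone.

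Total counts per library ranged from 4313599 to 10444126. A small set of 8 features with over 1% of all counts each held 46.7% to 78.9% of a library, and the share was largest in the first rev library of clone 8. Without that library the PRC2 genes called, in the comparisons described next, were 3 at rev against 0h, 1 at rev against 4h (Rbbp4 lost), 6 between the clones (Suz12 lost) and 1 for the clone difference in change at rev against 4h (Suz12 lost), where 9.40%, 9.41%, 33.5% and 11.2% of all genes were called. All 10 PRC2 genes passed the filter on low counts, which kept 12742 genes. Levels are given in TMM-scaled CPM over the genes that passed the filter, where 3 counts correspond to between 0.21 and 0.908 CPM. The third principal component, with 8.57% of the variance, was positive in every 0h and 4h library (3.56 to 11) and negative in every 2h and rev library (-12.1 to -3.27). The comparisons 4h against 0h and rev against 2h lie within a side of this axis and the other 4 cross it. By the labels, 2h and rev both ended 2 h after the last compound was added, and 4h ended 4 h after. Libraries of 0h had neither 4OHT nor the MEK inhibitor. In the 4 comparisons that cross the axis, time since the last addition cannot be told apart from the induction or the inhibitor. The labels name no batch, and the part of this axis in the results was not tested. All 7 pluripotency markers examined (Pou5f1, Sox2, Nanog, Otx2, Utf1, Dppa5a and Zfp42) passed the filter, with a summed level of 799.1 to 1486 CPM, whereas the 5 fibroblast markers summed to 0.613 to 3.47 CPM and none passed, with Col3a1 and Postn at 0 in all libraries of 0h and 4h. Summed levels were 3.06 to 7.18 CPM for 5 primitive endoderm markers, 1.84 to 19.5 CPM for 4 trophoblast markers, 1.97 to 8.64 CPM for 3 primitive streak markers and 4.195 to 22.8 CPM for 2 neural markers. In bulk libraries, fewer cells of a type and less RNA per cell cannot be told apart.

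Across the induction, Phf19 fell, Jarid2 and Rbbp7 rose, and Ezh2 did not pass the test in any of the 6 comparisons between groups. At 2h against 0h, 4 of the 10 genes passed an adjusted p of 0.05 and are termed called (edgeR's quasi-likelihood test with Benjamini-Hochberg adjustment over all tested genes), against 17.0% of all genes tested: Suz12, Jarid2 and Rbbp7 were higher and Phf19 lower. At 4h against 0h, 5 were called, with 12.9% of all genes as background: Eed, Jarid2 and Rbbp7 were higher, Ezh1 and Phf19 lower. At rev against 0h, 3 were called (10.5% of all genes): Jarid2 and Rbbp7 were higher and Phf19 lower. The median log2 change of the 10 genes was 0.16 at 2h, 0.09 at 4h and 0.12 at rev, each against 0h, beside 0.00, -0.01 and 0.00 over all genes tested. These 3 comparisons share the 0h libraries. Cell type markers moved in them too. At 2h against 0h the pluripotency markers Utf1 (0.48) and Zfp42 (0.43), the primitive streak marker Eomes (1.07) and the neural marker Pax6 (1.31) were higher, and Otx2 (-0.90) and Sox1 (-0.88) lower. The trophoblast marker Krt7 was also called higher, on few reads. It averaged 0.62 CPM at 0h, 2.49 at 2h, 0.55 at 4h and 2.57 at rev, and passed the filter through 2h and rev, where it is high. At 4h Utf1 (1.32), Eomes (1.24) and Pax6 (2.37) were higher and Nanog (-0.75) lower. At rev Eomes (0.78) was higher and Otx2 (-0.69) lower. Krt7 and the primitive endoderm marker Pdgfra were called higher there on few reads, Pdgfra with 0.67 CPM on average at 0h and 1.80 at rev. The part of these markers in the changes of the PRC2 genes was not tested.

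The steps between later groups called fewer of the genes. At 4h against 2h, Phf19 was higher and Suz12 lower (2 of 10, against 12.1% of all genes). At rev against 4h, Phf19 and Rbbp4 were lower (2 of 10, against 9.61%). At rev against 2h none of the 10 was called by edgeR or by DESeq2 (1.78% of all genes), and 2 had an unadjusted p under 0.05, Phf19 with a log2 change of -0.52 ± 0.17 (SE, adjusted p = 0.127) and Suz12 with -0.30 ± 0.11 (adjusted p = 0.179). The median log2 changes were -0.02, -0.05 and -0.05.

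**Figure D1:**
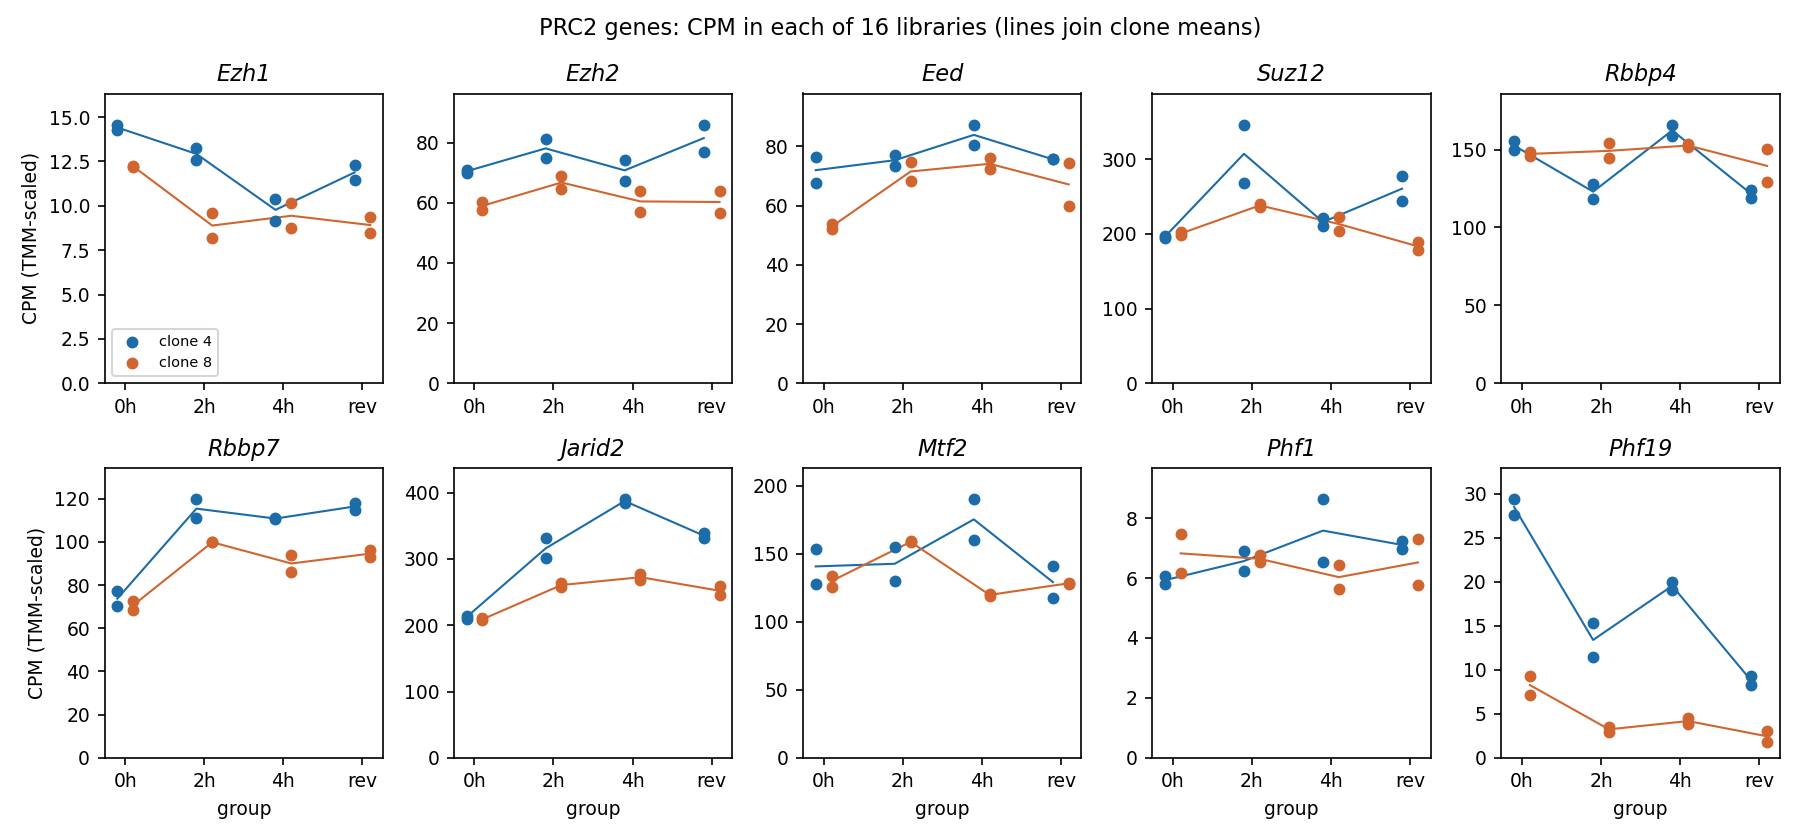
Level of each PRC2 gene (vertical axis, TMM-scaled CPM from 0) in the 4 libraries of each group (horizontal axis), with clone 4 in blue, clone 8 in orange and lines joining the 2 means of each clone. Phf19 lies lower in clone 8 in every group and is lowest at rev in both clones; Jarid2 and Rbbp7 start together in the clones at 0h and lie lower in clone 8 afterwards.

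Ezh2 (ENSMUSG00000029687, GRCm38 chr6:47530139-47595341, minus strand), the main methyltransferase of dividing cells, had 69.9 and 71.1 CPM in clone 4 and 60.4 and 57.6 CPM in clone 8 at 0h. At 4h it had 67.2 and 74.4 CPM in clone 4 and 63.8 and 57.1 CPM in clone 8. At rev the values were 77.0 and 86.1 CPM in clone 4 and 56.6 and 64.0 CPM in clone 8. Clone 4 was above clone 8 in all 4 groups, while the groups overlapped. The log2 change was 0.16 ± 0.079 (SE) at 2h against 0h (adjusted p = 0.166) and 0.02 ± 0.080 at 4h against 0h (adjusted p = 0.911). At 4h the interval of ± 2 SE runs from -0.14 to 0.18.

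Ezh1 (ENSMUSG00000006920, chr11:101191115-101226463, minus strand), the less active methyltransferase, typical of non-dividing cells, was at 14.6 and 14.3 CPM in clone 4 and 12.2 and 12.2 CPM in clone 8 at 0h. It was at 10.4 and 9.14 CPM in clone 4 and 10.2 and 8.73 CPM in clone 8 at 4h. Every 4h library lay below every 0h library. The log2 change was -0.44 ± 0.13 (SE, adjusted p = 0.0261). At 2h it was -0.31 ± 0.12 (adjusted p = 0.0798) and at rev -0.37 ± 0.13 (adjusted p = 0.0681), both against 0h. The call at 4h was lost when any of 5 single libraries was left out, 3 of 0h and both clone 4 libraries of 4h.

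Per kilobase of exon, Ezh1 made up 15.6% ± 0.33 (SD, n = 4) of the Ezh1 and Ezh2 signal at 0h, 11.8% ± 1.4 at 2h, 11.7% ± 1.2 at 4h and 11.7% ± 1.2 at rev. The 0h libraries ranged from 15.25% to 15.98% and the 2h libraries from 10.2% to 13.1%, so the groups did not overlap. Most of the catalytic subunit RNA was therefore Ezh2 in every library. These shares are a description with no test.

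Eed (ENSMUSG00000030619, chr7:89954654-89980983, minus strand), the subunit that reads trimethylated lysine 27, had 67.5 and 76.4 CPM in clone 4 and 52.0 and 53.7 CPM in clone 8 at 0h. At 4h it had 80.4 and 87.4 CPM in clone 4 and 72.3 and 76.0 CPM in clone 8. Within each clone the 4h libraries were above the 0h libraries, and over both clones the groups overlapped. Eed rose by a log2 change of 0.35 ± 0.090 (SE, adjusted p = 0.0142). Its change at 2h was 0.25 ± 0.089 (adjusted p = 0.0579) and at rev 0.21 ± 0.090 (adjusted p = 0.142). The 4h call was lost without either of the clone 8 libraries of 0h and in a fit of clone 4 alone.

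Suz12 (ENSMUSG00000017548, chr11:79993106-80034123, plus strand), the scaffold of the core, was close to even at 0h, with 194.6 and 197.3 CPM in clone 4 and 198.8 and 201.8 CPM in clone 8. At 2h it had 267.9 and 346.2 CPM in clone 4 and 236 and 240 CPM in clone 8. All 4 libraries of 2h were above all 4 of 0h, and Suz12 rose by a log2 change of 0.44 ± 0.11 (SE, adjusted p = 0.00789). At 4h the level was 210.4 and 221.2 CPM in clone 4 and 203.4 and 222.8 CPM in clone 8, lower than at 2h by a log2 change of -0.33 ± 0.11 (adjusted p = 0.0478) and 0.11 ± 0.11 above 0h on the log2 scale (adjusted p = 0.546). At rev it had 244 and 276.8 CPM in clone 4, above every 0h library, and 177.7 and 188.7 CPM in clone 8, below every 0h library. In clone 4 Suz12 was therefore high at 2h and rev and low at 0h and 4h, the division of groups seen on the third component. Over both clones the change at rev against 0h was 0.15 ± 0.11 (adjusted p = 0.422), and in clone 4 alone it was 0.41 (adjusted p = 0.0166). The 4h against 2h call was lost in 12 of the 16 fits that left out a library (any library of 0h or 2h among them), and in clone 8 alone the 2h change of 0.25 did not pass (adjusted p = 0.0602).

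Rbbp7 (ENSMUSG00000031353, chrX:162760402-162779092, plus strand) and Rbbp4 (ENSMUSG00000057236, chr4:129307100-129335370, minus strand) encode near-identical WD40 proteins that hold histones and also serve in deacetylase and chromatin assembly complexes. Rbbp7 had 70.1 and 77.3 CPM in clone 4 and 72.7 and 68.5 CPM in clone 8 at 0h. At 2h it had 111.0 and 119.8 CPM in clone 4 and 99.9 and 99.8 CPM in clone 8. At 4h the values were 111.1 and 110.5 CPM in clone 4 and 93.8 and 86.2 CPM in clone 8. At rev they were 114.7 and 118.1 CPM in clone 4 and 93.0 and 96.2 CPM in clone 8. Every library with 4OHT, rev included, was above every 0h library. Rbbp7 rose by a log2 change of 0.57 ± 0.074 at 2h (SE, adjusted p = 5.69e-05), 0.46 ± 0.075 at 4h (adjusted p = 0.000415) and 0.54 ± 0.075 at rev (adjusted p = 0.000257), each against 0h. Rev against 4h gave 0.07 ± 0.074 (adjusted p = 0.571), with a slightly higher mean at rev in both clones.

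Rbbp4 moved less, with 149.6 to 155.6 CPM in clone 4 and 146.1 to 148.4 CPM in clone 8 at 0h. At 2h it had 128.0 and 118.0 CPM in clone 4 and 144.3 and 154.1 CPM in clone 8, at 4h 158.5 and 166.1 CPM and 153.7 and 151.6 CPM, and at rev 118.9 and 124.2 CPM and 129.0 and 150.1 CPM. Clone 4 was low at 2h and rev and high at 0h and 4h, the same division as on the third component, and the clone 8 libraries lay within 129.0 to 154.1 CPM throughout. The only call was at rev against 4h, at -0.27 ± 0.086 on the log2 scale (SE, adjusted p = 0.0499). It was lost in 11 of 16 fits that left out a library, among them each of the 4 libraries of 0h, and in clone 8 alone. The Rbbp4 share of the Rbbp4 and Rbbp7 signal per kilobase was 40.9% ± 1.4 (SD, n = 4) at 0h, 29.7% ± 4.3 at 2h, 34.4% ± 2.1 at 4h and 29.3% ± 4.2 at rev, with the 0h libraries (39.2% to 42.5%) above all the others (24.7% to 36.9%). Without the correction for length the share of raw counts over all libraries was 59.9% in place of 33.6%, so which of the pair is the more abundant depends on that correction. Other genes on the opposite strand overlap 18.0% of the Rbbp4 exons and 6.0% of those of Rbbp7, and the labels give neither the strand setting nor how reads that match several places were counted.

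**Figure D2:**
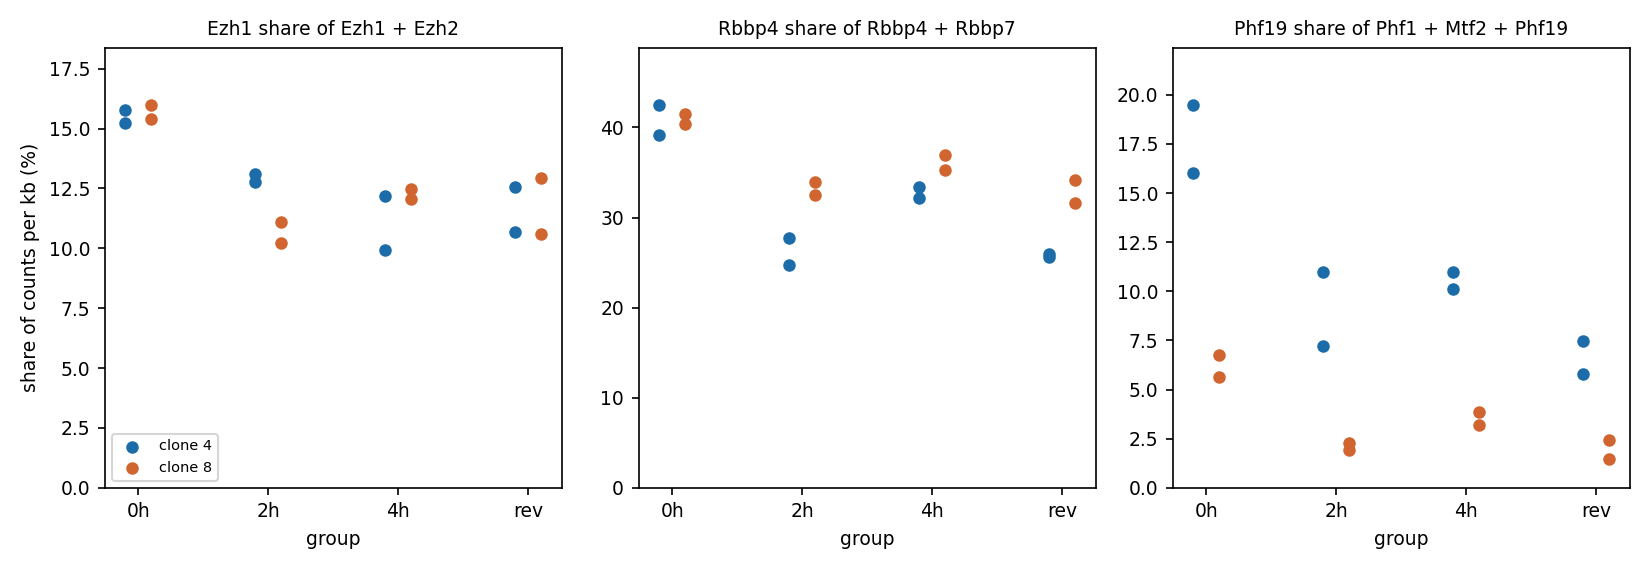
Share of a subunit family's counts per kilobase of exon (vertical axis, percent, from 0) in each library by group (horizontal axis), for Ezh1 of Ezh1 and Ezh2, Rbbp4 of Rbbp4 and Rbbp7, and Phf19 of the 3 Polycomb-like genes; blue points are clone 4 and orange points clone 8. Ezh1 and Rbbp4 shares are highest at 0h, and the Phf19 share is lower in clone 8 in every group.

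Jarid2 (ENSMUSG00000038518, chr13:44729474-44921643, plus strand), the PRC2.2 subunit that binds monoubiquitylated histone H2A and whose methylated form stimulates the enzyme, was even across libraries at 0h, at 210.0 and 214.3 CPM in clone 4 and 207.5 and 210.1 CPM in clone 8. At 2h it had 300.6 and 330.9 CPM in clone 4 and 257.2 and 263.9 CPM in clone 8. At 4h it had 390.1 and 384.3 CPM in clone 4 and 276.9 and 267.9 CPM in clone 8, and at rev 338.3 and 332.0 CPM in clone 4 and 258.9 and 245.0 CPM in clone 8. All 12 later libraries were above all 4 of 0h. Jarid2 rose by a log2 change of 0.44 ± 0.086 at 2h (SE, adjusted p = 0.00218), 0.62 ± 0.087 at 4h (adjusted p = 0.000112) and 0.46 ± 0.087 at rev (adjusted p = 0.00261), each against 0h. The change from 4h to rev was -0.16 ± 0.086 (adjusted p = 0.249). In clone 8 alone the rev against 0h change of 0.27 did not pass the test.

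Of the Polycomb-like genes, Phf19 (ENSMUSG00000026873, chr2:34893757-34914026, minus strand), a reader of methylated lysine 36 of histone H3, changed most. It had 29.4 and 27.6 CPM in clone 4 and 9.34 and 7.19 CPM in clone 8 at 0h. At 2h these were 15.3 and 11.5 CPM in clone 4 and 2.96 and 3.51 CPM in clone 8. At 4h they were 20.0 and 19.1 CPM in clone 4 and 4.52 and 3.83 CPM in clone 8. At rev they were 9.26 and 8.25 CPM in clone 4 and 1.82 and 3.07 CPM in clone 8. Within each clone every later library was below both 0h libraries, and rev had the lowest mean of the 4 groups in both clones. In each clone 2h and rev also lay below 4h, again the division on the third component; within a side of that axis, 4h against 0h was called and rev against 2h was not. Over both clones the groups overlapped, as clone 4 at rev was at about the level of clone 8 at 0h. Phf19 fell by 1.2 ± 0.15 on the log2 scale at 2h (SE, adjusted p = 2.52e-05), by 0.71 ± 0.15 at 4h (adjusted p = 0.00325) and by 1.72 ± 0.16 at rev (adjusted p = 4.24e-06), each against 0h. The last is a 3.29-fold lower level. From 2h to 4h it was 0.49 ± 0.15 higher (adjusted p = 0.0424), and from 4h to rev it fell by 1.01 ± 0.17 (adjusted p = 0.00064).

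The 4h against 2h call of Phf19 was lost in 8 of 16 fits that left out a library, among them both clone 8 libraries of 2h and both clone 4 libraries of 4h. In clone 8 alone the fall from 4h to rev did not pass (-0.66, adjusted p = 0.263), where Phf19 rests on few reads, 6 in the smallest library. The calls against 0h were kept in every fit that left out a library, with a log2 change of -1.82 to -1.64 at rev, and were lost only in models without the clone and, at 4h, also with library totals as the scaling.

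Mtf2 (ENSMUSG00000029267, chr5:108065674-108109004, plus strand), the most abundant Polycomb-like subunit of pluripotent cells, ranged from 117.6 to 190.3 CPM over the 16 libraries and was called in no comparison between groups. Phf1 (ENSMUSG00000024193, chr17:26933052-26937908, plus strand) ranged from 5.63 to 8.64 CPM and was also not called. Genes on the opposite strand overlap 39.3% of the Phf1 exons, among them Cuta, so its count may hold reads of those genes. Per kilobase, Mtf2 made up 86.0% of the 3 Polycomb-like genes over all libraries. The Phf19 share was 16.01% and 19.5% in clone 4 and 5.63% and 6.74% in clone 8 at 0h, and 5.77% to 7.49% in clone 4 and 1.47% to 2.41% in clone 8 at rev.

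**Figure D3:**
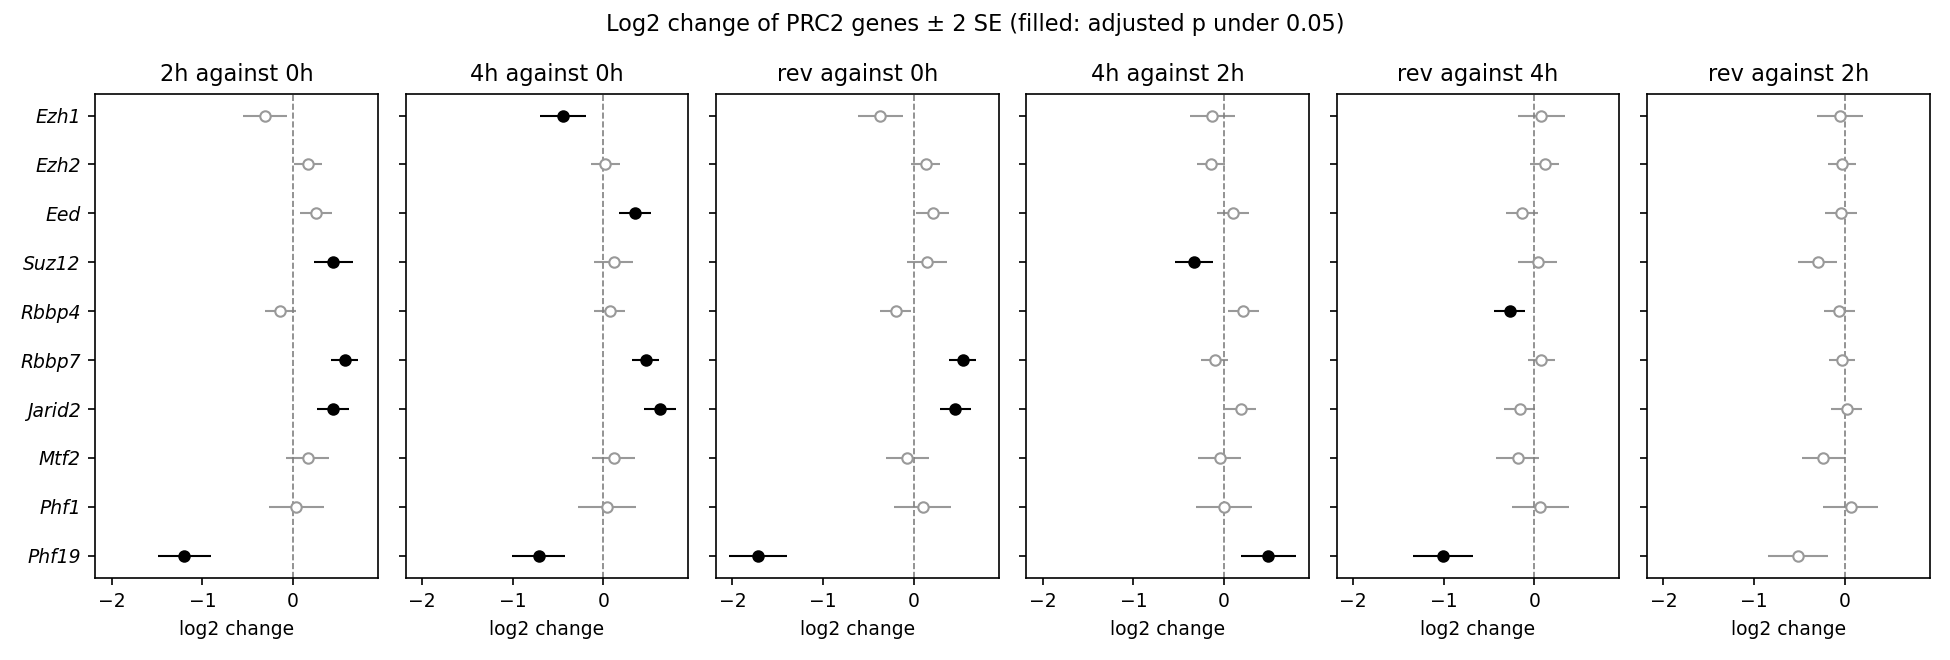
Log2 change of each PRC2 gene (horizontal axis) with bars of ± 2 SE in the 6 comparisons between groups, 4 libraries against 4; filled points have an adjusted p under 0.05. Phf19 lies left of 0 in each comparison except 4h against 2h, and Jarid2 and Rbbp7 lie right of 0 in the 3 comparisons against 0h.

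Set side by side per kilobase of exon and averaged over the 16 libraries, Suz12 was the most abundant of the 10 genes at 45.9 ± 8.6 CPM per kilobase (SD) and Ezh1 the least at 1.49 ± 0.28, a span of 30.8-fold. Rbbp7 (33.1 ± 6.0) and Jarid2 (28.9 ± 6.2) followed Suz12, then Mtf2 (24.7 ± 3.5), Eed (18.7 ± 2.4), Rbbp4 (16.4 ± 1.7) and Ezh2 (10.3 ± 1.3). Phf19 (2.189 ± 1.8) and Phf1 (1.91 ± 0.22) were near Ezh1. In every library Suz12 was above Rbbp7, Mtf2 above Eed, Rbbp4 above Ezh2, and Ezh2 above Phf19. The order of Jarid2 and Mtf2 was less firm, with Jarid2 above in 10 of 16 libraries, and it turned with the group: at 0h Mtf2 (22.1 to 27.0 CPM per kilobase) was above Jarid2 (21.4 to 22.1) in all 4 libraries. Phf19 was above Phf1 in 6 of 16, all of clone 4. Both catalytic subunits were lower per kilobase than the scaffold and Eed. The order depends on the correction for length. In CPM alone Jarid2 (280.5 on average) was above Suz12 (226.7), and Rbbp4 (143.5) and Mtf2 (140.7) were above Rbbp7 (96.4).

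The 2 clones differed in the level of most of the genes. Over all groups, 7 of the 10 were lower in clone 8 than in clone 4 and none was higher, where 34.9% of all genes tested were called in either direction. Of 5 further PRC2-linked genes tested, described below, 3 were higher in clone 8 and 1 was lower. The median log2 difference (clone 8 minus clone 4) of the 10 genes was -0.22, beside -0.01 over all genes. Phf19 was 3.85-fold lower in clone 8, at -1.95 ± 0.11 on the log2 scale (SE, adjusted p = 1.32e-10), and the clones did not overlap within any group. The other 6 differences were small: Ezh1 -0.32 ± 0.089 (adjusted p = 0.00752), Jarid2 -0.31 ± 0.061 (adjusted p = 0.000579), Ezh2 -0.28 ± 0.056 (adjusted p = 0.000593), Rbbp7 -0.22 ± 0.052 (adjusted p = 0.00273), Suz12 -0.22 ± 0.076 (adjusted p = 0.0322) and Eed -0.21 ± 0.063 (adjusted p = 0.0132). Mtf2 (-0.13 ± 0.084), Phf1 (-0.04 ± 0.11) and Rbbp4 (0.09 ± 0.060) did not pass the test. Before induction some of these genes were near even: at 0h the means of clone 4 and clone 8 were 196 and 200.3 CPM for Suz12, 212.1 and 208.8 CPM for Jarid2, and 73.7 and 70.6 CPM for Rbbp7. Suz12 was also near even at 4h (215.8 and 213.1 CPM), and the clones lay apart at 2h and rev.

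Beside these differences, the median clone difference of the tested genes on the same chromosome was 0.16 for chromosome 6, which holds Ezh2 (624 genes), so Ezh2 lay -0.45 from its chromosome. For the chromosomes of the other 9 genes the median was between -0.04 and 0.03, and for chromosome 2, which holds Phf19, it was -0.02. With library totals as the scaling, only Phf19 was still called, while the calls over all genes fell to 17.2% and the differences relative to the median of all genes (0.08) were of similar size, for example -0.27 for Ezh2 and -0.30 for Jarid2. The Suz12 difference was lost in 7 of 16 fits that left out a library, 3 of 2h and all 4 of rev. Of the 7 pluripotency markers, Nanog was higher in clone 8 (a log2 difference of 0.93), Otx2 (-0.95) and Zfp42 (-0.35) were lower, and the others were not called. Of the markers of other cell types, both trophoblast markers tested were lower in clone 8 (-3.07 for Krt7, on at most 41 counts in a library, and -1.52 for Gata3). Pdgfra, a primitive endoderm marker, was lower (-0.74), the neural marker Pax6 was lower (-1.75) and Sox1 higher (1.29). The part of these markers in the differences was not tested.

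**Figure D4:**
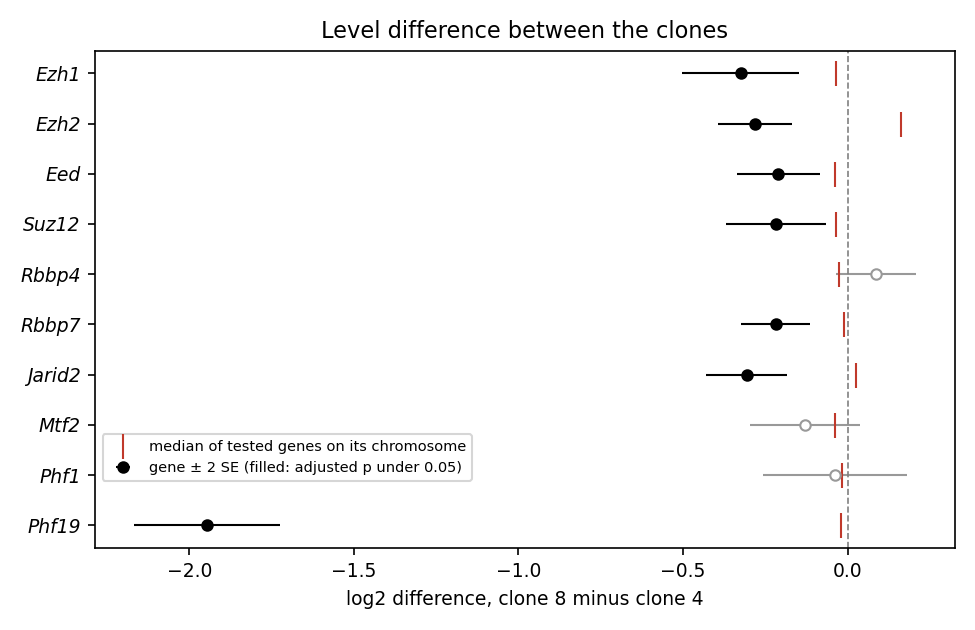
Log2 difference of level between the clones (horizontal axis, clone 8 minus clone 4, with bars of ± 2 SE over 8 libraries of each) for each PRC2 gene; filled points have an adjusted p under 0.05 and red ticks give the median of the tested genes on the same chromosome. Phf19 lies at -1.95, the other called genes between -0.32 and -0.21, and the tick of chromosome 6 for Ezh2 at 0.16.

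Whether a gene's change differed between the clones was tested as an interaction, the change in clone 8 minus that in clone 4. At 2h against 0h none of the 10 genes was called by edgeR or DESeq2, with 7.94% of all genes called, and 3 had an unadjusted p under 0.05 (Suz12, Eed and Rbbp4). At 4h against 0h Jarid2 was called (1 of 10, against 5.72% of all genes): its rise was 0.87 in clone 4 and 0.38 in clone 8, a difference of -0.48 ± 0.14 (SE, adjusted p = 0.0306). At rev against 4h, 2 of 10 were called, against 13.2% of all genes. Suz12 changed by 0.27 in clone 4 and -0.21 in clone 8 (difference -0.49 ± 0.16, adjusted p = 0.0337), and Mtf2 by -0.45 in clone 4 and 0.10 in clone 8 (difference 0.55 ± 0.16, adjusted p = 0.0211).

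The change of Phf19 was -1.08 in clone 4 and -1.37 in clone 8 at 2h, -0.53 and -0.98 at 4h, and -1.17 and -0.66 from 4h to rev, and none of these differences passed the test (adjusted p = 0.574, 0.473 and 0.43). The interval of ± 2 SE for the 2h difference runs from -0.82 to 0.25. Each interaction has 2 libraries in each of 4 cells. The Jarid2 call was lost without any 1 of the 8 libraries of 0h and 4h, and the Suz12 and Mtf2 calls in 5 of 16 fits that left out a library, 4 and 5 of them without a library of 4h or rev, and with library totals the Mtf2 difference was -0.13, when the median of all genes moved to -0.67, so that relative to it Mtf2 was at 0.54.

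Genes that respond to ERK moved with the clone as well. All 8 feedback genes examined (Spry2, Spry4, Dusp5, Dusp6, Etv4, Etv5, Egr1 and Fos) rose at 2h and at 4h against 0h, with median log2 changes of 2.73 and 2.86, and 7 fell at rev against 4h. Of all genes, 17.0%, 12.9% and 9.61% were called in these comparisons in either direction. The rise was smaller in clone 8 for 7 of the 8 at 4h (interaction called, median -2.51), beside 5.72% of all genes. In this comparison Jarid2 also rose less in clone 8. At 2h against 0h the interaction was called for 4 of the 8 (median -0.98), beside 7.94% of all genes. At rev against 4h it was called for 5 (median 1.52), with a smaller fall in clone 8, beside 13.2% of all genes. The Jarid2 interaction was called in neither (-0.25, adjusted p = 0.27, and 0.09, adjusted p = 0.728). The part of the weaker induction in the Jarid2 difference was not tested.

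**Figure D5:**
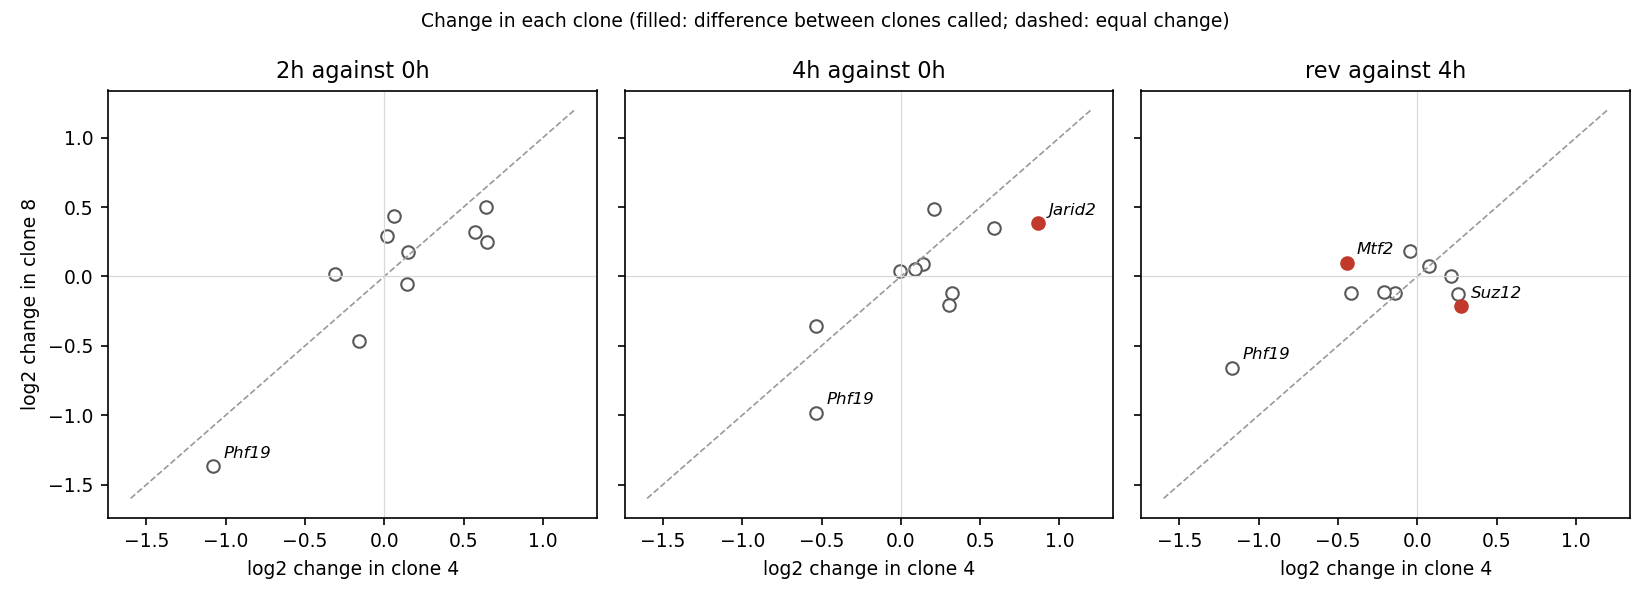
Log2 change of each PRC2 gene in clone 4 (horizontal axis) against that in clone 8 (vertical axis), 2 libraries per group and clone, in panels for 2h and 4h (each against 0h) and for rev (against 4h); the dashed line marks equal change and filled red points a called difference between the clones. Jarid2 at 4h lies at 0.87 and 0.38, and Phf19 lies at negative values in both clones in the 3 panels.

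Other genes named for PRC2 or for Polycomb group function were described from lists. Of 6 further PRC2-linked genes, 5 passed the filter and Ezhip, a natural inhibitor of the complex, did not, with at most 17 counts in a library. At 2h against 0h Aebp2, the partner of Jarid2 in PRC2.2, rose by a log2 change of 0.35 (adjusted p = 0.0329) and Lcor, a PRC2.1 partner, by 0.46 (adjusted p = 0.0366). Both were lower again at 4h against 2h, Aebp2 at -0.43 (adjusted p = 0.0173) and Lcor at -0.48 (adjusted p = 0.0405), and at 4h against 0h none of the 5 was called by edgeR. Aebp2 averaged 114.8 CPM at 0h, 147.6 at 2h, 110.3 at 4h and 135.6 at rev, the division of groups on the third component. Its change at rev against 4h was not called (0.32, adjusted p = 0.0713). Epop, a PRC2.1 subunit that links it to Elongin, was higher at rev than at 0h (0.53, adjusted p = 0.00835). Ogt, a sugar transferase, was lower at rev, against 4h (-0.40, adjusted p = 0.00454) and against 0h (-0.39, adjusted p = 0.00671).

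All 23 genes of PRC1, the complex that ubiquitylates histone H2A, were tested. At 2h against 0h 3 rose (Pcgf5 by 0.57, Rybp by 0.53 and the catalytic Rnf2 by 0.43) and 4 fell (Pcgf2 by 0.59, Cbx6 by 0.45, Cbx7 by 0.38 and Phc1 by 0.33). These are 7 of 23, against 17.0% of all genes. At 4h against 0h Bcor (0.53), Rnf2 (0.42) and Bmi1 (0.41) were higher. The median log2 change of the list was 0.03 at 2h and 0.07 at 4h, near that of all genes.

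Among 8 enzymes that act against PRC2 or mark active chromatin, 2 were called at 2h against 0h (17.0% of all genes) and 2 at 4h against 2h (12.1%). Ep300 (0.54) and Crebbp (0.44), the acetyltransferases that place acetyl groups on lysine 27, rose at 2h against 0h, and Kmt2a rose at 4h (0.34). The change was smaller in clone 8 for Ep300 at 2h (interaction -0.94, adjusted p = 0.00103) and for Kmt2a at 4h (-0.60, adjusted p = 0.0135). Kdm6b, a demethylase of lysine 27, was higher at 4h than at 2h (0.87, adjusted p = 0.00548) and lower at rev than at 4h (-0.70, adjusted p = 0.0222). It averaged 77.7 CPM at 0h, 54.4 at 2h, 100.6 at 4h and 62.2 at rev, the division of groups on the third component. At 4h against 0h it was not called (0.35, adjusted p = 0.226). Its change differed between the clones by -1.01 at 4h against 0h (adjusted p = 0.000101) and by 1.34 at rev against 4h (adjusted p = 1.4e-06). Kdm6a was lower at 4h than at 2h (-0.28, adjusted p = 0.0328).

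For comparison with the rise of Rbbp7, 10 genes of other complexes that hold Rbbp4 and Rbbp7 (among them Hdac1, Hdac2, Sin3a, Chd4 and Chaf1a) were examined. In the 6 comparisons between groups the only call was Mta1 at 4h against 0h (-0.31, adjusted p = 0.0432), beside 12.9% of all genes. In the other comparisons 1.78% to 17.0% of all genes were called. Between the clones 4 of the 10 were higher in clone 8 and 2 lower, beside 34.9% of all genes called in either direction. The change of Hdac1 at 2h against 0h also differed between the clones (0.44, adjusted p = 0.0451), beside 7.94% of all genes. Of 20 E2F-controlled and replication genes, a list chosen because E2F factors are known to drive Ezh2 and Eed, Ccne2 rose at 2h (0.65, adjusted p = 0.00532), and at 4h Pcna was higher (0.35, adjusted p = 0.00281) and Rrm2 lower (-0.31, adjusted p = 0.0423), each against 0h. Between the clones Mcm7 (0.15) and E2f3 (-0.19) were called in that list.

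Of 30 developmental regulators known as PRC2 targets in embryonic stem cells, 12 passed the filter, and 18 were too low to test. At 2h against 0h 4 of the 12 were called higher, beside 9.49% of all genes called higher: Pax6 by a log2 change of 1.31, Eomes by 1.07, and Neurog1 and Hand1, which rest on few reads. Hand1 had 1 to 4 counts per library at 0h and 6 to 24 at 2h. Neurog1 had 0 to 7 counts at 0h, 13 to 38 at 2h, 0 to 2 at 4h and 3 to 33 at rev. At 4h against 0h Pax6 (2.37), Eomes (1.24) and Nkx2-2 (0 to 1 counts per library at 0h, 1 to 15 at 4h) were called higher and Gsc (-1.44, 1 to 10 counts at 4h) lower. Of all genes, 12.9% were called there in either direction. No fold is given where a group lies at about 3 counts or fewer. Hand1, Neurog1 and Nkx2-2 passed the filter through the groups where they are high, so the counts of genes called higher rest in part on the filter. Neurog1 was at 0.39 CPM on average at 0h, 2.74 at 2h, 0.11 at 4h and 2.26 at rev, the same division of groups as on the third component.

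By Pearson correlation of log2 CPM over the 16 libraries, among 8059 genes with a mean of at least 50 counts, the genes most like Phf19 were Rdm1 (0.94), Ash2l (0.94), Hormad2 (0.93), Hadh (0.93) and Clic4 (0.92). Those most like Ezh2 were Cnn3 (0.93), Gclm (0.91), Rheb (0.90), Diaph1 (0.90) and Dnajc5 (0.90). The libraries share groups, clones and depth, so these values describe likeness only.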

How the data were processed

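RNA of 16 libraries was measured by RNA-seq after depletion of ribosomal RNA, per the labels' protocols. The authors deposited raw counts, as a table with 52636 Ensembl gene IDs and a column for each library. The submitters' processing notes name STAR 2.5.3a, bcl2fastq 2.19.1 and build mm10. The counting program, annotation and strand setting are not given in the sources used here. Names, coordinates and exon lengths came from GENCODE M21 (GRCm38, the assembly of mm10) by gene ID, which matched 52489 IDs, and upstream windows from RefSeq (GRCm38.p6).

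The deposited counts were tested by the quasi-likelihood method of edgeR (version 4.0.16 under R 4.3.3). The filter filterByExpr (minimum count 10 and total 15, by group) retained 12742 genes, which were scaled by TMM. The model held group and clone over all 16 libraries. Clone differences in change were interaction terms in a model of group and clone combined. P-values were adjusted by Benjamini-Hochberg over all 12742 genes and called under 0.05. The SE was taken from the F statistic, as the size of the log2 change over its root. CPM are relative to the kept genes, ribosomal features included, and a prior count of 2 was added for log2 CPM. Levels between genes were compared as CPM per kilobase of merged exons.

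Alternatives were other scalings (RLE, library totals, library totals outside features above 1%), no filter, DESeq2 1.42.0, no clone term, a replicate block, each clone alone, an adjusted p under 0.01 and each library left out in turn. The scripts were tested on simulated data. Groups, clones and replicate numbers came from the sample titles. The titles give the same replicate numbers in each group. Deviations from the group means correlated by 0.375 on average where clone and number were shared and by 0.384 where the clone alone was, and by -0.0106 for the former once the means of each clone and group were removed, so the numbers were not taken to pair libraries. The 2 libraries of a clone in a group were not copies of each other: their counts gave a chi-square of 1.29 to 4.04 for each degree of freedom.

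The rule for named genes was to name all 10 members with their values. From the further lists some of the genes that were called are named. Not every comparison of a list is described, so an unnamed list gene may also have been called. The likeness rule took the 5 genes with the highest correlation to Ezh2 and Phf19. The members and lists were chosen with earlier results of these data known. A result of the PRC1 list is not reported here.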

Additional observations from a re-analysis of the deposited data

Results flagged for a closer look

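Within 2 of the 40 sets of 4 libraries (10 genes in 4 groups) a single library stood far from the others; about 1 set in 20 does so by chance. Eed at rev had 59.95 CPM in the first library of clone 8, the library with the fewest counts outside the most abundant features, against 74.3 to 75.7 CPM in the other 3. Mtf2 at 2h had 130.3 CPM in the first library of clone 4, against 155.2 to 159.3 CPM in the other 3.

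For 3 genes the change differed between the clones by the interaction test. The difference, clone 8 minus clone 4 on the log2 scale, was -0.48 for Jarid2 at 4h against 0h, -0.49 for Suz12 at rev against 4h and 0.55 for Mtf2 at rev against 4h. Each clone has 2 libraries per group.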

How the results depend on the processing

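The 26 called changes and differences of PRC2 genes were recomputed under 639 alternatives in all: 512 kept direction and call, 126 lost the call and 1 reversed. With library totals as the scaling 20 of 26 were lost, and the calls among the 10 genes were 1 at 2h against 0h, 0 at 4h against 0h, 0 at 4h against 2h, 1 at rev against 4h, 1 at rev against 0h, 1 for level between the clones, and 0 and 1 for the interactions at 4h against 0h and rev against 4h. The share of all genes called fell as well, to 3.50% at 2h against 0h, 4.03% at 4h against 0h and 17.2% between the clones. The Mtf2 interaction at rev against 4h was then -0.13, while the median of all genes was -0.667, so relative to that median it kept its sign (0.54). RLE factors left 1 call at rev against 4h, and totals outside the features above 1% also 1, with 9.72% and 9.64% of all genes called. Without the filter there were 1 at 4h against 2h, 1 at rev against 4h, 1 at rev against 2h, 4 between the clones, and 0 and 1 for those 2 interactions. In the same order, 6.30%, 5.35%, 1.51%, 15.2%, 2.23% and 5.55% of all genes were called. Without the clone term 12 of 16 calls between groups were lost, leaving 1 at 2h, 2 at 4h and 1 at rev, each against 0h, and 0 at 4h against 2h and at rev against 4h, while the calls over all genes fell to 5.94%, 4.29% and 2.14% in the comparisons against 0h. With a replicate block there were 0 calls at 4h against 2h and 1 at rev against 4h, and 3 of 19 calls were lost in all (Suz12 and Phf19 at 4h against 2h, Rbbp4 at rev against 4h); no other call changed. In clone 4 alone there were 4 calls at 4h against 2h and 5 at rev against 0h, with 27.1% and 16.8% of all genes called. In clone 8 alone there were 1 at 4h against 2h, 0 at rev against 4h and 1 at rev against 2h, with 9.65%, 6.42% and 3.49% of all genes called. At an adjusted p under 0.01 there were 3 at 4h against 0h, 0 at 4h against 2h, 1 at rev against 4h, and 0 for both interactions. The share of all genes at this threshold was not computed. Leaving out each library gave 3 to 5 calls at 4h against 0h, 0 to 2 at 4h against 2h, 1 to 2 at rev against 4h, 0 to 1 for the interactions at 2h and at 4h against 0h, and 0 to 2 for that at rev against 4h. In those fits the share of all genes called was 7.39% to 14.1% at 4h against 0h, 5.40% to 13.5% at 4h against 2h and 4.94% to 11.5% at rev against 4h. DESeq2 lost none of the 26. The Rbbp4 share of Rbbp4 and Rbbp7 was 59.9% of raw counts and 33.6% per kilobase, and the Phf1 share of the Polycomb-like genes 4.27% and 6.74%. Depth limits Phf19 in clone 8 and Phf1 most.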
